A study of Homo sapiens with 4 samples.

Results

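T cells start their antigen response when the Src family kinases LCK and FYN phosphorylate the T cell receptor (TCR) complex, and a set of enzymes and adaptors holds those kinases back or undoes their work. The 10 genes described here belong to that set: PTPN6, CSK, PAG1, PTPN2, PTPN7, PTPN11, PTPN22, PTPRC, UBASH3A and CBLB. CSK phosphorylates the C-terminal inhibitory tyrosine of Src family kinases, PAG1 is the membrane adaptor that docks CSK, and PTPRC (CD45) removes the same inhibitory phosphate and so also activates these kinases. PTPN22, PTPN2 and PTPN6 (SHP-1) are phosphatases that dampen the kinases or their targets, whereas PTPN11 (SHP-2), close to PTPN6 in domain order, can also promote RAS signalling.

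The genes were taken by name from a table of 16328 transcript rows, and every row carrying one of the 10 symbols was kept, which gave 13 rows. The set was chosen by function, but it was selected on measured values too: the RPM of PTPN6 and CSK in these 4 libraries, which an earlier look had found higher with SLEAR shRNA, brought it up. The differences of PTPN6, CSK and the other members from Control are therefore given as a description, and no test on them is used. The samples were Jurkat cells, an established human T cell leukemia line, transduced with a lentiviral vector carrying shRNA. There were 3 libraries with hairpins against SLEAR, a long noncoding RNA that the series title ties to systemic lupus erythematosus (SLEAR shRNA-1 to SLEAR shRNA-3, whose values are always listed in that order), and 1 library with a control hairpin (Control). Whether these numbers mark different hairpins, repeats of 1 hairpin or separate cultures is not stated in the labels, so any spread between the libraries may be technical. No stimulation of the TCR is stated, and the level of SLEAR is not analysed here, which leaves the knockdown unchecked.

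Libraries were made by MAPS, which reads the 3' ends of polyadenylated RNA, and values are RPM, reads scaled by the authors to a common library total. RPM are not divided by transcript length, so levels of different genes are set in order here on that scale only. Estimated depth was 4814163 to 7524256 reads in the SLEAR shRNA libraries and 8384882 reads in Control. SLEAR shRNA-3 stood apart: 6941 of the 16328 rows were at 0 there, against 2984 in Control, and its Pearson correlation with SLEAR shRNA-1 and -2 across 12350 rows was 0.88 and 0.89, against 0.98 between those libraries. All 12 T cell markers sought were in the table, and their summed level was 4371 to 4479 RPM in the SLEAR shRNA libraries and 4014 RPM in Control. Most of that sum came from CD3D, CD247, LCK and CD3E, while CD28 and PTCRA were at only 7.87 and 5.72 RPM in Control. CD3G did not reach 1 RPM in any library and was not tested. Of the 11 tested, 3 (CD3D, LCK and CD4) were above Control in all 3 SLEAR shRNA libraries and 2 (CD28 and TRAT1) below. The shares over all tested rows were 17.8% above and 28.6% below. Over the whole table, 0 of 12350 tested rows (0%) passed limma-trend at an adjusted p under 0.05, with 331 rows (2.68%) at an unadjusted p under 0.05, and limma-voom also passed 0 rows.

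PTPN6 stood higher in every SLEAR shRNA library. SHP-1, its product, is a phosphatase of blood cells that binds phosphorylated inhibitory receptors through its SH2 domains. PTPN6 was at 49.9, 54.9 and 59.6 RPM in the SLEAR shRNA libraries, against 22.7 RPM in Control. The SLEAR shRNA values lay close together and none came near the Control value, whose 95% counting interval on 190 estimated reads was 19.6 to 26.1 RPM (exact Poisson, counting error only). The mean was 54.8 ± 4.84 RPM (SD, n = 3) in SLEAR shRNA, 2.42-fold that of the single Control, and the difference was 1.23 ± 0.26 on the log2(RPM + 1) scale (SE from the fit over all rows). Without SLEAR shRNA-3 it was 1.17 ± 0.15 (SE). In bulk RNA, more cells that express a gene and more RNA per cell cannot be told apart, nor can fewer and less. Among the 4851 rows whose log2(RPM + 1) averaged 4 or more, called well-covered below, 5 rows (0.103%), PTPN6 included, were at least as far above Control in each SLEAR shRNA library as PTPN6 was in its lowest. PTPN6 was picked because these same values were high, so that rank was built in and is a description only.

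CSK, the kinase at the head of this brake, was also higher in every SLEAR shRNA library. It was at 109, 101 and 101 RPM in the SLEAR shRNA libraries, against 63.6 RPM in Control. The counting intervals of the SLEAR shRNA libraries began at 92.0 RPM or above, and that of Control ended at 69.2 RPM. The mean was 104 ± 4.80 RPM (SD, n = 3) in SLEAR shRNA, 1.63-fold that of Control, a log2 difference of 0.70 ± 0.20 (SE) with all libraries and 0.72 ± 0.12 (SE) without SLEAR shRNA-3. The SLEAR shRNA libraries differed less for CSK than for most rows: the SD of its 3 log2 differences was 0.07, and 5.09% of the 4851 rows had a smaller one. Of those rows, 64 (1.32%) were at least as far above Control in each library as CSK in its lowest. CSK too was picked on these values, so its rank is a description only.

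**Figure D1:**
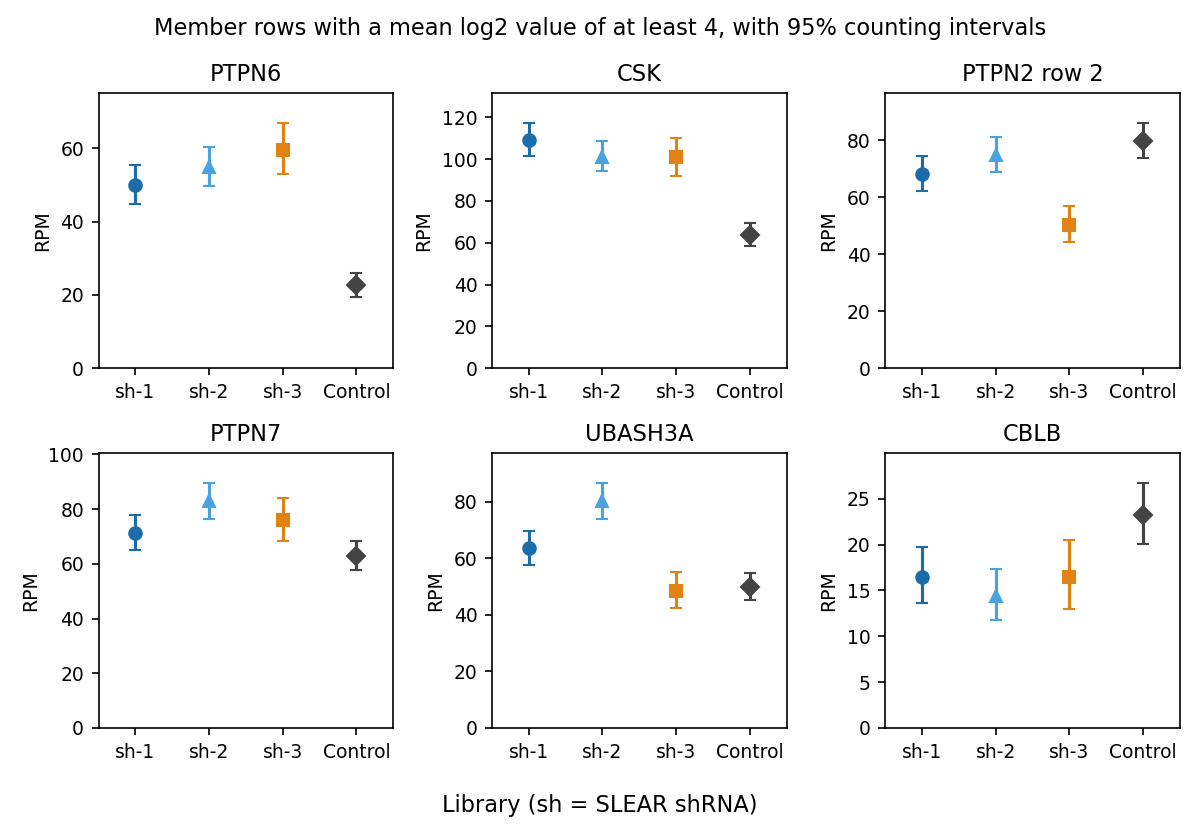
RPM of the 6 well-covered member rows, in SLEAR shRNA-1, -2 and -3 (sh-1, sh-2, sh-3) and Control; bars are exact 95% Poisson intervals on estimated reads. For PTPN6 and CSK the Control interval (19.6 to 26.1 and 58.3 to 69.2 RPM) lies under all 3 SLEAR shRNA values, while for UBASH3A SLEAR shRNA-3 sits beside Control.

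The row of PTPN6 pools its transcripts, which begin at different promoters, and the row of CSK pools those of CSK, because a 3' read does not show where its transcript began. PTPN6 is known to have an upstream promoter used in epithelial cells and a downstream one used in blood cells. The 250 bases before RefSeq starts of these genes (GRCh38.p14, plus strand in each case) are shown. They need not cover every start behind the pooled values. They lie at chr12:6946327-6946576 and chr12:6951106-6951355 for PTPN6 and at chr15:74788294-74788543 for CSK. Capitals mark matches, on either strand, to any of 5 motifs searched: the GC box GGGCGG, the ETS core CCGGAA, the RUNX site TGTGGT, the CCAAT box CCAAT and the E-box CAGCTG.
PTPN6, upstream start: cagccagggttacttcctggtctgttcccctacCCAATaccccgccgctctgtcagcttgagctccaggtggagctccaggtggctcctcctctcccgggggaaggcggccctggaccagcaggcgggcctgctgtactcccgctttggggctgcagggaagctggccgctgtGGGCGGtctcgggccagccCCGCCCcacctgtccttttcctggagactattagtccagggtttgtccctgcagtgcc
PTPN6, downstream start: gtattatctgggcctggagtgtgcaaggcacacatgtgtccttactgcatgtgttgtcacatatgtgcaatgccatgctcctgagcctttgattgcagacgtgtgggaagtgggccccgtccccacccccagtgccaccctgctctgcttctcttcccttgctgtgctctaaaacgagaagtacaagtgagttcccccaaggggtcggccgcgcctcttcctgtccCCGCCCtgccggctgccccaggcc
CSK: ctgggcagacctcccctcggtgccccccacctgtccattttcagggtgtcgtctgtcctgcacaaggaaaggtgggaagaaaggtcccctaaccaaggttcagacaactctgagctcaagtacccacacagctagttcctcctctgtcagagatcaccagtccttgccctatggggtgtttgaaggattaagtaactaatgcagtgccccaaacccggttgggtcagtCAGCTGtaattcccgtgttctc
The upstream PTPN6 window, with 66.4% G and C, held 1 CCAAT box and 2 GC boxes that did not overlap, and the downstream window, with 59.6%, held 1 GC box. The CSK window, with 54% G and C, held 1 CAGCTG. Of 35116 windows of the same length, 42.6% held a GC box, 32% a CCAAT box, 14% a CAGCTG, 14.5% the ETS core and 11% the RUNX site. The libraries do not tell which PTPN6 start supplied the reads. For CSK, 1 window was at hand for the 2 transcripts that its row pools, so other CSK starts may be missing.

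The other members with ample reads lay nearer to Control. PTPN7, a blood cell phosphatase that acts on the MAP kinases ERK and p38, was at 71.2, 82.9 and 76.0 RPM in the SLEAR shRNA libraries, against 62.9 RPM in Control, a log2 difference of 0.28 ± 0.22 (SE). All 3 SLEAR shRNA values were above Control, but the counting intervals of SLEAR shRNA-1 and SLEAR shRNA-3, from 65.1 and 68.4 RPM, overlapped that of Control, which reached 68.5 RPM. UBASH3A (STS-2), a T cell protein that binds CBL and ubiquitin and whose phosphatase activity is weak, was at 63.6, 80.1 and 48.4 RPM in the SLEAR shRNA libraries, against 49.9 RPM in Control. Its SLEAR shRNA values straddled Control, and its log2 difference was 0.33 ± 0.35 (SE) with SLEAR shRNA-3 and 0.51 ± 0.20 (SE) without it.

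CBLB, the E3 ubiquitin ligase that sets the threshold for T cell activation, was lower in every SLEAR shRNA library. It was at 16.5, 14.4 and 16.4 RPM in the SLEAR shRNA libraries, against 23.3 RPM in Control. All 3 values were below Control, whose counting interval of 20.1 to 26.8 RPM overlapped the upper end of that of SLEAR shRNA-3, at 20.5 RPM. The mean was 15.7 ± 1.20 RPM (SD, n = 3) in SLEAR shRNA, a log2 difference of -0.54 ± 0.39 (SE) with all libraries and -0.57 ± 0.22 (SE) without SLEAR shRNA-3. PTPN6 and CBLB were thus at like levels in Control, 22.7 and 23.3 RPM with overlapping counting intervals, and at 54.8 and 15.7 RPM on average in SLEAR shRNA.

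PTPN2 (TC-PTP), which acts on JAK kinases, STAT proteins and LCK, was split over 2 rows. Its higher row was at 68.2, 74.8 and 50.3 RPM in the SLEAR shRNA libraries, against 79.8 RPM in Control, so all 3 SLEAR shRNA values were lower. SLEAR shRNA-3 gave most of that: the log2 difference was -0.32 ± 0.31 (SE) with it and -0.16 ± 0.13 (SE) without it. The lower row stayed at 1.59 to 2.84 RPM in SLEAR shRNA and 2.62 RPM in Control. PTPN11 was at 7.52, 14.5 and 5.40 RPM in the SLEAR shRNA libraries, against 10.0 RPM in Control, on both sides of it. Its log2 difference was -0.22 ± 0.74 (SE), and 0.06 ± 0.50 (SE) without SLEAR shRNA-3. Both genes have pseudogenes that could share their reads, 2 named after PTPN2 and 5 after PTPN11 in the RefSeq table, so their rows are uncertain.

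**Figure D2:**
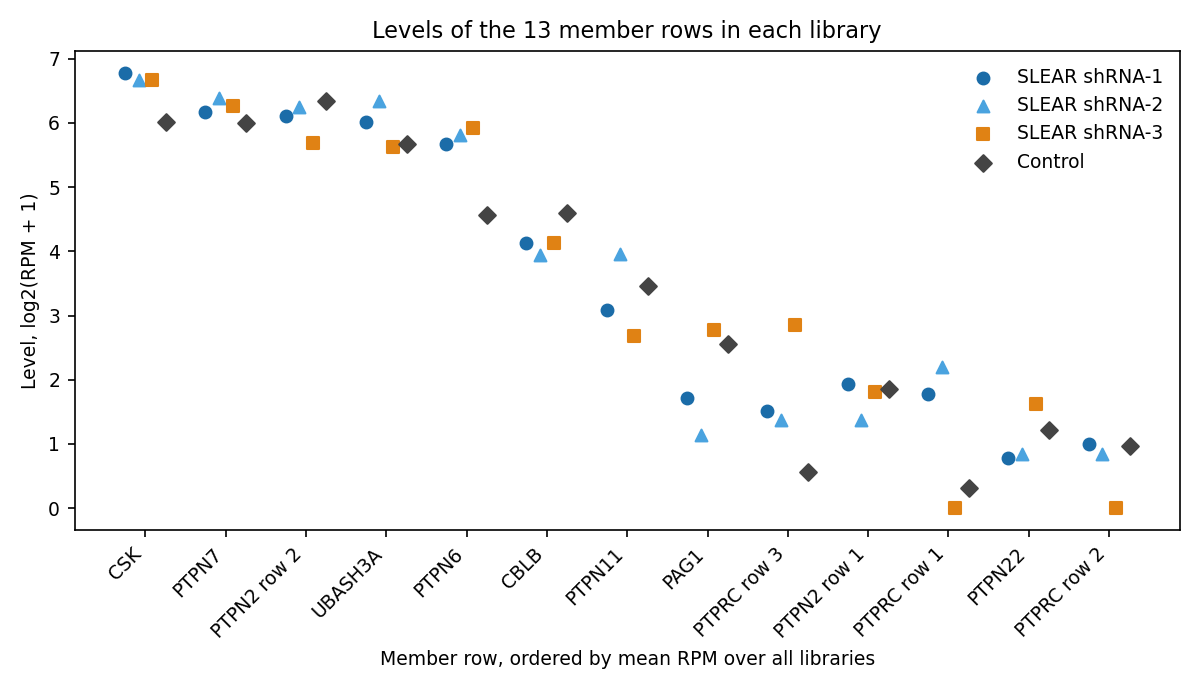
Level on the log2(RPM + 1) scale of the 13 member rows, ordered by mean RPM over all libraries; each point is 1 library, with Control to the right of the SLEAR shRNA libraries. For PTPN6 and CSK every SLEAR shRNA point stands above Control, and rows 1 and 2 of PTPRC are at 0 in SLEAR shRNA-3.

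The remaining members were at low levels. PAG1 was at 2.27, 1.20 and 5.82 RPM in the SLEAR shRNA libraries, against 4.89 RPM in Control, so SLEAR shRNA-3 was above Control and the other SLEAR shRNA libraries below. PTPN22, which removes activating phosphates from LCK and ZAP70, was at 0.709, 0.797 and 2.08 RPM against 1.31 RPM in Control, on 5 to 11 estimated reads in each library. For PAG1 the counting interval of SLEAR shRNA-2, 0.547 to 2.27 RPM, lay under that of Control, 3.51 to 6.63 RPM, and those of the other SLEAR shRNA libraries overlapped it. For PTPN22 no difference was detectable at this depth.

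PTPRC was spread over 3 rows, all of them low, although CD45 is a major surface protein of T cells. The row of its main protein-coding transcripts was at 1.84, 1.59 and 6.23 RPM in the SLEAR shRNA libraries, against 0.477 RPM in Control. A row of a noncoding transcript was at 2.41, 3.59 and 0 RPM against 0.239 RPM in Control. SLEAR shRNA-3 thus had reads in the first of these rows alone. The third row stayed at 0.993 RPM or below in SLEAR shRNA and at 0.954 RPM in Control, and it was the 1 member row that did not reach the 1 RPM needed for testing. Summed over the rows, PTPRC was at 5.25, 5.98 and 6.23 RPM in the SLEAR shRNA libraries, against 1.67 RPM in Control. These sums rest on 37, 45 and 30 estimated reads against 14, and were higher in all 3 SLEAR shRNA libraries. A 0 in SLEAR shRNA-3 says little at this level: 44.1% of the 596 rows that lay between 2 and 4 RPM in both other SLEAR shRNA libraries were at 0 in it.

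By summed level the order in SLEAR shRNA was CSK (104 ± 4.80 RPM), PTPN7 (76.7 ± 5.89), PTPN2 (66.8 ± 12.4), UBASH3A (64.0 ± 15.9), PTPN6 (54.8 ± 4.84), CBLB (15.7 ± 1.20), PTPN11 (9.14 ± 4.75), PTPRC (5.82 ± 0.51), PAG1 (3.09 ± 2.42) and PTPN22 (1.19 ± 0.77; SD, n = 3 for each). Neighbours in that order overlapped within 1 SD, except CSK with PTPN7, PTPN6 with CBLB, and CBLB with PTPN11. In Control the order was PTPN2 (82.4 RPM), CSK (63.6), PTPN7 (62.9), UBASH3A (49.9), CBLB (23.3), PTPN6 (22.7), PTPN11 (10.0), PAG1 (4.89), PTPRC (1.67) and PTPN22 (1.31). CSK was thus the highest member in SLEAR shRNA and PTPN2 in Control.

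Of the 13 member rows, 12 passed the filter on low values, and 4 of these (PTPN6, CSK, PTPN7 and 1 row of PTPRC) were above Control in all 3 SLEAR shRNA libraries, against 17.8% of all tested rows. A further 2 (CBLB and the higher row of PTPN2) were below Control in all 3, against 28.6% of all tested rows. Since the members were chosen with this contrast in view, nothing is read from these counts. In SLEAR shRNA-1 and -2 alone, 6 of the 12 were above Control and 4 below, against 35.2% and 41% of all tested rows. The median log2 difference was 0.08 over the 12 member rows and -0.11 over all tested rows. The tested rows of PTPRC, at 0.477 and 0.239 RPM in Control, reached 1 RPM only in SLEAR shRNA libraries. The filter thus favoured positive differences for them, and they enter the counts above Control and this median.

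**Figure D3:**
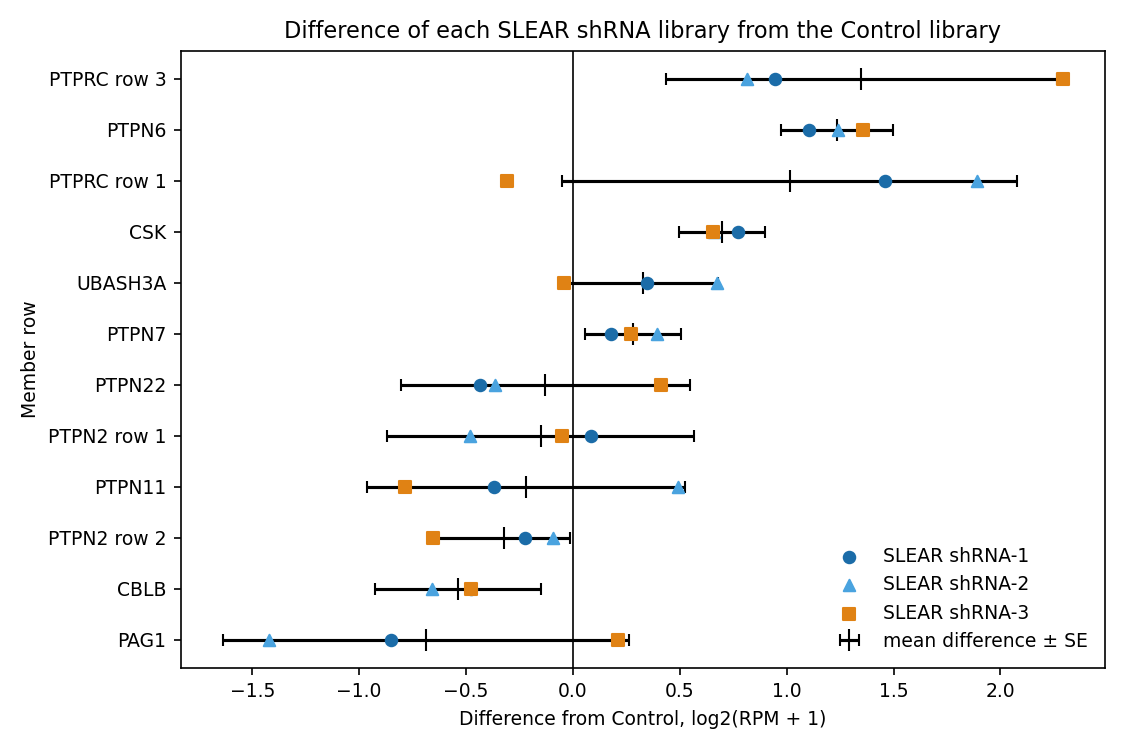
Difference from Control on the log2(RPM + 1) scale for the 12 tested member rows; coloured points are the SLEAR shRNA libraries, and the vertical tick with bar is the mean difference ± SE from the fit over all rows. The points of PTPN6, CSK, PTPN7 and CBLB lie close together, and those of PTPRC, PAG1 and PTPN11 are spread widely.

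**Figure D4:**
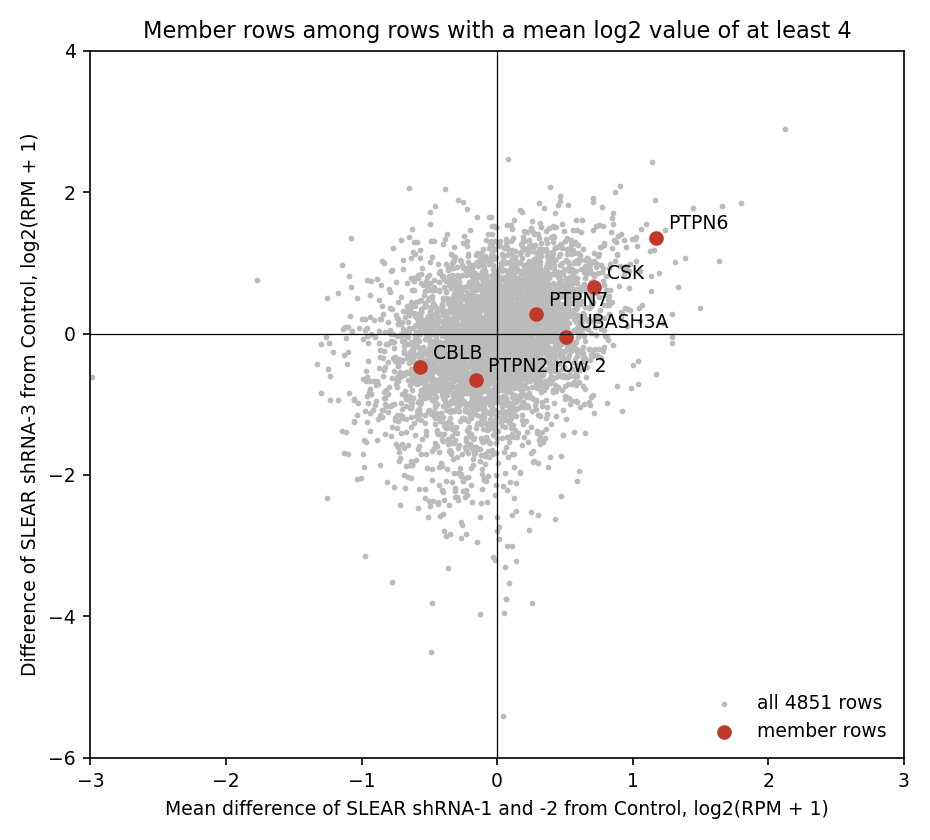
Mean log2(RPM + 1) difference of SLEAR shRNA-1 and -2 from Control (horizontal) against that of SLEAR shRNA-3 (vertical) for the 4851 well-covered rows; red points are the 6 member rows. Both axes share the Control library, so some alignment is built in; PTPN6 lies at the upper right edge and CSK nearer the centre of the cloud.

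The rows whose 3 differences were nearest to those of PTPN6 and CSK were sought among 6268 rows with a mean of at least 8 RPM and no 0. For PTPN6 they were REEP2, TMC6 and GRAMD1A, at Euclidean distances of 0.21, 0.21 and 0.24 on the log2 scale over 3 differences that share 1 Control. GRAMD1A, for example, was at 41.6, 47.3 and 51.3 RPM in the SLEAR shRNA libraries, against 21.2 RPM in Control. For CSK they were SF3B5, NCBP1 and DYRK1A, at distances of 0.04, 0.04 and 0.05. SF3B5 was at 281, 258 and 258 RPM in the SLEAR shRNA libraries, against 166 RPM in Control.

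The kinases and adaptors on which these brakes act were present at high levels. Of 24 listed genes of Src family and proximal TCR signalling, 18 were tested, 6 were above Control in all 3 SLEAR shRNA libraries and 3 below, against 17.8% and 28.6% of all tested rows, and the median log2 difference was 0.06, against -0.11. LCK was at 925, 884 and 1037 RPM in the SLEAR shRNA libraries, against 753 RPM in Control, above it in each. CD247, the zeta chain of the TCR complex, was at 1014, 911 and 777 RPM, against 905 RPM in Control, on both sides of it. A fit without SLEAR shRNA-3 over the 4851 well-covered rows, which pooled the spread over rows with 1 residual degree of freedom per row, passed 7.11% of all rows as higher and 7.26% as lower at an adjusted p under 0.05 (limma-trend). Of the 14 listed genes in it, LAT passed as higher and FYB and GRAP2 as lower, 3 adaptors named after their values were seen. LAT was at 206, 193 and 118 RPM in the SLEAR shRNA libraries, against 140 RPM in Control, so SLEAR shRNA-3 went the other way.

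Other negative regulators of T cell activation gave 27 tested of 35 listed genes, 7 above Control in all 3 SLEAR shRNA libraries and 3 below, where 17.8% and 28.6% of all tested rows were, with a median log2 difference of 0.06. In the fit without SLEAR shRNA-3, SLA2, DOK2 and CD5 passed as higher and SPRED2 as lower among 13 listed genes, against 7.11% and 7.26% of all rows; DOK2, CD5 and SPRED2 are named after their values were seen. INPP5D (SHIP1), a lipid phosphatase, was at 218, 189 and 266 RPM in the SLEAR shRNA libraries, against 160 RPM in Control, above it in each. SLA2, an adaptor that restrains TCR signalling, was at 190, 198 and 129 RPM against 128 RPM in Control, where SLEAR shRNA-3 lay next to Control. DGKA, which removes the second messenger diacylglycerol, was at 439, 396 and 359 RPM against 379 RPM in Control, on both sides of it.

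Of 24 other tyrosine phosphatase genes, 21 were tested, 3 were above Control in all 3 SLEAR shRNA libraries and 10 below, against 17.8% and 28.6% of all tested rows. The median log2 difference was -0.27, against -0.11 over all tested rows, or -0.21 without SLEAR shRNA-3, against -0.03. Without SLEAR shRNA-3, PTPN18 passed as higher and ACP1, named after its values were seen, as lower among 8 listed genes, against 7.11% and 7.26% of all rows. PTPN18, of the PEST family, was at 108, 119 and 140 RPM in the SLEAR shRNA libraries, against 76.6 RPM in Control, above it in each. PTPN3 was at 269, 252 and 169 RPM against 301 RPM in Control, below it in each. PTPN1 (PTP1B), the nearest relative of PTPN2, was at 49.5, 57.9 and 76.4 RPM against 68.2 RPM in Control, on both sides of it. No row passed the test with all libraries, so none of these lists held a gene that did so there.

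**Figure D5:**
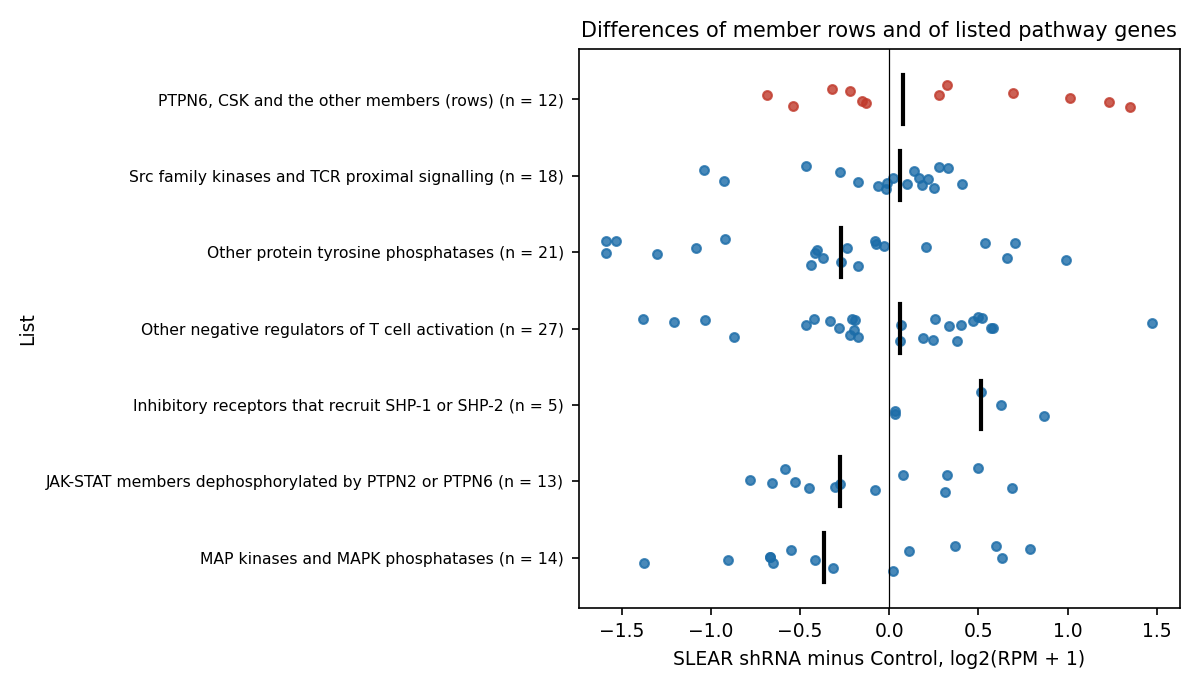
Log2(RPM + 1) difference, SLEAR shRNA minus Control, of the 12 tested member rows (red) and of the tested genes of 6 pathway lists (blue, 1 row per gene); black ticks are medians. Medians run from -0.37 for MAP kinases and their phosphatases to 0.51 for inhibitory receptors, and every list spans both sides of 0 except the 5 inhibitory receptors. Of these receptors, all at low levels, PDCD1 and CD300A were at 0.358 and 0 RPM in Control. They passed the filter of 1 RPM only through SLEAR shRNA libraries, which favoured positive differences, so nothing is read from the side or median of this list.

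Markers of other cell types were low, apart from the B cell marker CD79A. Of the 6 B cell markers, 3 were in the table and 2 were tested. These, CD79A and CD79B, were above Control in all 3 SLEAR shRNA libraries, as were 17.8% of all tested rows. CD79A was at 20.7, 18.3 and 21.6 RPM in the SLEAR shRNA libraries, against 12.0 RPM in Control. CD79B was low in every library, at 1.28, 1.33 and 1.45 RPM against 0 RPM in Control. It passed the filter on low values only through SLEAR shRNA libraries, so its direction was built in. The summed level of the list was 19.7 to 23.1 RPM in SLEAR shRNA and 12.0 RPM in Control, and its part in the PTPN6 difference was not tested. Summed myeloid, epithelial and fibroblast markers were each at 3.19 RPM or below in every library, and the 1 erythroid marker in the table at 0.119 RPM or below.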

How the data were processed

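The deposited table holds 4 columns of RPM, which the authors made by scaling reads per transcript row. The submitters' processing notes list FastQC, Bowtie2 and SAMtools, no versions, and build hg19. The assignment of reads to rows is not stated. Rows identical in all libraries were merged where they averaged 1 RPM or more (177 removed, 16151 kept). Depth was inferred from the smallest regular step of low values; 96.0% to 96.5% of low values were whole within 0.05 reads, so the values were not treated as counts, and intervals and limits cover counting error only. All 4 libraries entered limma-trend (limma 3.58.1, R 4.3.3) on log2(RPM + 1). The 12350 rows that reached 1 RPM anywhere were tested, and p-values were adjusted over them by Benjamini-Hochberg, with 0.05 as threshold. A fold on this scale understates low rows. With 1 Control, the spread came from the SLEAR shRNA libraries and Control was assumed to vary like them. From each list the 3 genes with the highest mean RPM were named, each by its highest row; some genes that this rule names are not reported here. The members and lists were chosen with earlier results of these data known. Promoter windows are from RefSeq on GRCh38.p14, matched by symbol, and no coordinates of the hg19 table are given. All 27 accessions of the member rows were found in the RefSeq table.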

Additional observations from a re-analysis of the deposited data

How the results depend on the processing

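No row passed limma-trend under pseudocounts of 0.1 or 5, no filter, a filter that kept the well-covered rows (log2 values averaging 4 or more), TMM or median-of-ratios scaling, limma-voom, array weights, summed rows, or leaving out SLEAR shRNA-1, -2 or -3, where the count was 0 each time. Only leaving out SLEAR shRNA-3 together with that filter gave calls, 697 in all, with 345 higher and 352 lower; the cause was not tested. PTPN6 kept its direction under all 13 alternatives, at 1.11 to 1.30 (log2), as did CSK, at 0.66 to 0.72, and CBLB, at -0.59 to -0.45. For PTPN6, CSK and CBLB, every SLEAR shRNA value lay on the same side of Control. Pseudocounts, filters, weights and left-out libraries therefore could not turn their directions, and only the sizes are informative. The direction turned for PTPN11 under array weights and without SLEAR shRNA-3, for the lower row of PTPN2 without SLEAR shRNA-2, and for PTPN22 without SLEAR shRNA-1. UBASH3A ranged from 0.15 to 0.54 and the higher row of PTPN2 from -0.44 to -0.15. The pseudocount mattered most for PTPRC, whose main row ranged from 0.54 to 2.25. The median over all tested rows lay between -0.18 and 0.00. No paired analysis was possible because there was 1 Control library, so the groups share fewer than 2 replicate numbers. Depth limits PAG1, PTPN22 and PTPRC.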

Other observations

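In JAK-STAT signalling, a cytokine pathway on which PTPN2 and PTPN6 act, 13 of 15 listed genes were tested. Of these, 2 were above Control in all 3 SLEAR shRNA libraries and 5 below, against 17.8% and 28.6% of all tested rows. The median log2 difference was -0.27, against -0.11 over all tested rows. IL2RG, the common cytokine receptor chain, was at 1273, 1204 and 1102 RPM in SLEAR shRNA libraries 1 to 3, against 1472 RPM in Control, below it in each. STAT6 was at 60.3, 47.7 and 85.4 RPM against 50.2 RPM in Control, on both sides of it.

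Among MAP kinases, on which PTPN7 acts, and their dual-specificity phosphatases, 14 of 19 listed genes were tested, with 4 above and 4 below Control in all 3 SLEAR shRNA libraries, against 17.8% and 28.6% of all tested rows. Their median log2 difference was -0.37, or -0.10 without SLEAR shRNA-3, against -0.11 and -0.03 over all tested rows. MAPK3 (ERK1) was at 48.8, 45.2 and 72.7 RPM in SLEAR shRNA libraries 1 to 3, against 34.7 RPM in Control, above it in each. MAP2K2 was at 57.0, 48.5 and 38.8 RPM against 36.6 RPM in Control, and MAPK9 at 24.3, 22.6 and 40.5 RPM against 35.3 RPM in Control. Of 21 receptors listed as able to recruit SHP-1 or SHP-2, 10 were in the table and 5 were tested. LAIR1, the highest of them, was at 7.66, 5.85 and 4.78 RPM in the SLEAR shRNA libraries, against 5.84 RPM in Control. None of these genes passed the test with all libraries, as no row did.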
